A study of Mus musculus with 15 samples.

Results

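Splicing factors were followed through the first 48 h of culture of mouse dental mesenchymal cells (mDMCs). A row of the expression table was taken as a splicing factor when its transcript belonged to a gene of the families Srsf, Hnrnp, Snrp, Sf3a and Sf3b, U2af, Prpf, Rbfox, Mbnl or Esrp, by gene symbol alone. This gave 72 of the 12089 rows, for 71 genes, since Hnrnpu had 2 rows. The annotation held 75 protein-coding genes with such symbols, and Esrp1, Esrp2, Rbfox1 and Rbfox3 had no row in the table used here. The symbols make a family list rather than a list of proven splicing activities, because some hnRNPs are also known for RNA transport, translation and transcription.

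RNA-seq had been performed on mDMCs of ICR mouse embryos. All cells came from the mandibular first molar germs at E14.5, after the dental epithelium had been removed with dispase and the mesenchyme dissociated with trypsin. The 0 h group (3 libraries) was made from cells just after isolation. The cultured groups had grown in medium with FBS for 12 h (2 libraries), 24 h (3 libraries), 36 h (3 libraries) or 48 h (3 libraries), and the last sample was dental mesenchymal tissue (1 library). The labels name no transgene or treatment other than culture, and no source used here states how many embryos made up a library or whether replicates were separate cultures, so that the p-values measure only the spread between these libraries.

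Introns are removed from pre-mRNA by the spliceosome, which is built from small nuclear ribonucleoproteins (snRNPs) and many associated proteins. The core parts recognize the splice sites and the branch site and carry out the reaction, whereas SR proteins, hnRNPs and tissue-restricted regulators such as the muscleblind (Mbnl) and Rbfox proteins decide which exons are kept. SR proteins mostly favor exon inclusion from exonic enhancers, hnRNPs often act through silencers, and Mbnl, Rbfox and Esrp proteins are known for the splicing programs that separate embryonic from mature and epithelial from mesenchymal cells.

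The promoters of 4 members with large changes in either direction are shown, because splicing factors are usually counted among the widely expressed genes and the letters before their start sites can be compared with those of other genes. Each sequence is the 250 bases before the RefSeq start site on GRCm38.p6, written 5′ to 3′ on the strand of the gene. Capitals mark matches, on either strand, to the GC box GGGCGG, the CCAAT box CCAAT and the Ets site CCGGAAG. Mbnl1 lies at chr3:60500929-60501178, Mbnl2 at chr14:120275419-120275668, Srsf5 at chr12:80945249-80945498 and Srsf6 at chr2:162931258-162931507, all on the plus strand.
Mbnl1: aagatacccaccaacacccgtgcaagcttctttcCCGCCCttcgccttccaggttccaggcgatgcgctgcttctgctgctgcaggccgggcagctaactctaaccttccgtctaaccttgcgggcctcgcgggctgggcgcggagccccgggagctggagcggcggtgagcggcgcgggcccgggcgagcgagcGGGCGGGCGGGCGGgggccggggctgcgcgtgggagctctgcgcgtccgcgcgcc
Mbnl2: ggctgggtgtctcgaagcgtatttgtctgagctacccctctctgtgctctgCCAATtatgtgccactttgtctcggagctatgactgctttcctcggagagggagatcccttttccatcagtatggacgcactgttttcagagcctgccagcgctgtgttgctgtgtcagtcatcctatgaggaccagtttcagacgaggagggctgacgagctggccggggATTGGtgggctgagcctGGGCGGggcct
Srsf5: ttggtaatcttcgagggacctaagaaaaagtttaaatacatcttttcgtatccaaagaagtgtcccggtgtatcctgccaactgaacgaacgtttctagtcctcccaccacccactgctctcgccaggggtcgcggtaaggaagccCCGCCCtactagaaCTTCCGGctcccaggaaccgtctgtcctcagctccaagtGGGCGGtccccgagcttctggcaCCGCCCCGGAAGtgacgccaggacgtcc
Srsf6: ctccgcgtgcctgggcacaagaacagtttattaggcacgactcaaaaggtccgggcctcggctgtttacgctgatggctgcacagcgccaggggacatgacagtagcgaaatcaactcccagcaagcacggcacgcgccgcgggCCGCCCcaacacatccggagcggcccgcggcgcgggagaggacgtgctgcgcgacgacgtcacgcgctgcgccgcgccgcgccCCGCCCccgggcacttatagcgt
Of the 71 genes, 52 had a RefSeq promoter whose start lay within 500 bases of that of the listed transcript, against 8319 promoters in the table as a whole. A GC box was present in 65.4% of the members' promoters and in 63.0% of all promoters. The Ets site was present in 28.8% and 14.6%, and the CCAAT box in 48.1% and 37.1%, respectively. The E-box CACGTG was found in 7.69% and 8.86%, the TATA box TATAAA in 5.77% and 5.93%, and the cyclic AMP response element TGACGTCA in 1.92% and 2.88%. Each was counted on both strands, and none of these shares was tested. These matches describe letters in a window and not bound sites.

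The deposited values are whole-number scores on a common scale. The first 0 h library had a median of 721, the largest value of the table was 127101, and library totals lay between 21357605 and 21365980. At 71.9% of the ranks, all 15 libraries held the same value. A score therefore places a transcript largely by its rank within a library, the sequencing depth is unknown, and replicate libraries can carry exactly the same score. Scores were not divided by transcript length and are compared here only within a gene. Of the 72 rows, 63 listed a protein-coding transcript and the others a retained-intron, processed or nonsense-mediated decay transcript of the gene, and no source used here says whether a score covers that isoform or the gene. Genes with processed pseudogenes or close relatives, such as Hnrnpa1, Hnrnpk and the Sm genes, are uncertain where reads matched several transcripts. All 72 rows passed the filter on low values, and none held a 0. Changes are given on the log2(score + 1) scale with the standard error of the limma fit, and a row was called at a Benjamini-Hochberg adjusted p below 0.05 over the 12079 rows tested.

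The 9 markers of dental mesenchyme all had rows, with summed scores of 80059 to 97037 at 0 h, 57693 to 72608 at 12 h, 44127 to 47516 at 36 h and 45690 to 52070 at 48 h. At 24 h the third library stood apart at 89447, within the 0 h range, against 48183 and 53879 in the other 24 h libraries, and the tissue library had 66624, below every 0 h library. Markers of other cell types moved with time in culture. The summed score of 5 red cell genes was 49436 to 79310 at 0 h and 25 to 370 in the cultured libraries, where the embryonic globin gene Hbb-bh1 was listed at 0 in 9 of 11 libraries. The 6 endothelial genes summed to 7975 to 9452 at 0 h and to 396 to 851 in culture. The 4 macrophage genes with rows summed to 859 to 1109 and 439 to 1191, and Tubb3 and Stmn2, the only 2 of 8 neuron and glia genes with rows, to 121 to 306 and 473 to 2511. The first 0 h library stood apart in epithelial genes, with a summed score of 13749 for 8 genes against 1504 and 1817 in the other 0 h libraries. These genes summed to 2383 to 2855 at 12 h, 1070 to 2208 at 24 h, 87 to 679 at 36 h, 387 to 1315 at 48 h and 5340 in tissue. The part of these cells in the changes below was not tested, and in such bulk libraries fewer cells of a type cannot be told apart from less RNA per cell.

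After 48 h of culture, most splicing factors were lower than in freshly isolated mDMCs. Of the 72 rows, 45 fell (62.5%), 5 rose (6.94%) and 22 were not called. Over all tested rows, 34% fell and 37.1% rose. The median change was −0.46 among the splicing factors and 0.03 over all tested rows. The 3 libraries at 48 h lay entirely below the 3 libraries at 0 h for 42 rows and entirely above them for 5, against 34.6% and 37.3% of all tested rows. Without the first 0 h library, the one with the epithelial markers, 39 rows fell and 6 rose. By an unadjusted p below 0.05 with a change of more than 2-fold, 10 of the 72 rows fell and 2 rose. Over all tested rows, 15.9% fell and 16.2% rose by this rule. The share of members that fell by more than 2-fold was therefore near that of the table, and most of the falls were smaller than 2-fold.

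**Figure D1:**
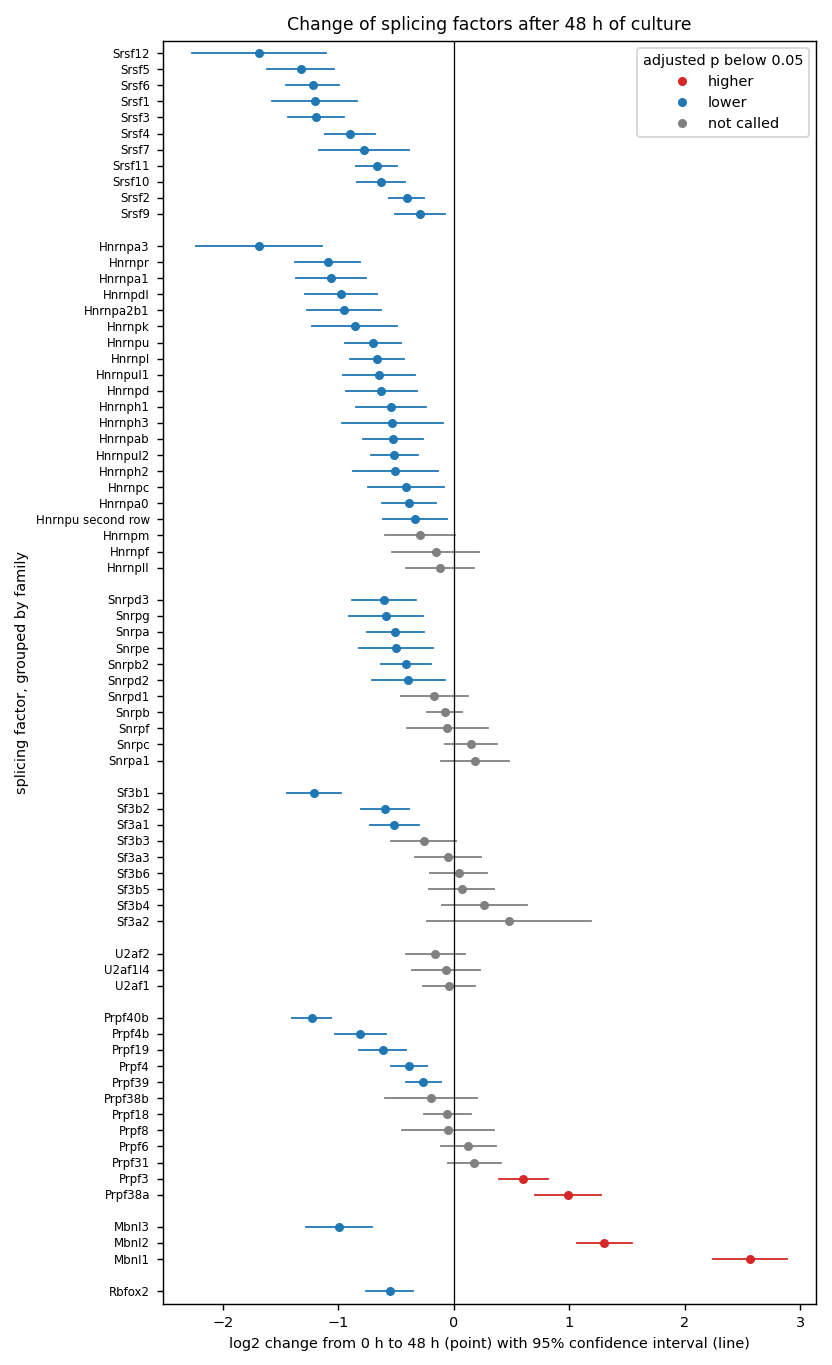
Fitted log2 change from 0 h to 48 h (horizontal axis) of 71 of the 72 splicing factor rows, grouped by family from Srsf at the top to Rbfox at the bottom, with points for estimates, lines for 95% confidence intervals, and red, blue and grey for higher, lower and not called. All 11 Srsf rows lie left of 0, whereas the Prpf rows spread to both sides and Mbnl1 stands farthest to the right at 2.56.

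The calls were spread unevenly over the families. At 48 h against 0 h, all 11 Srsf rows and 18 of 21 Hnrnp rows fell. Of the snRNP proteins, 6 of 11 fell (54.5%), and of the Sf3a and Sf3b subunits 3 of 9 (33.3%), the latter near the 34% of all tested rows. None of the 3 U2af rows was called, with 0 also at an unadjusted p below 0.05. Of the 13 Prpf rows, 5 fell (38.5%), also near the 34% of all tested rows. Another 3 rose (23.1%), against 37.1% of all tested rows. In the regulators, Mbnl1 and Mbnl2 rose, and Mbnl3 and Rbfox2 fell. The median changes were −0.90 for Srsf, −0.55 for Hnrnp, −0.39 for Snrp, −0.05 for Sf3a and Sf3b, −0.07 for U2af and −0.06 for Prpf. The differences between families were not tested.

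More splicing factors were lower at the later time points. At 12 h, 22 rows were lower and 9 higher than at 0 h, against 28.3% and 29.9% of all tested rows, so that the share of members that had fallen (30.6%) was near that of the table. The number that fell was 14 without 12 h replicate 1. At 24 h, 31 rows were lower and 10 higher, against 31.8% and 35%, and the number higher was 5 without 24 h replicate 2 and 5 without 24 h replicate 3. At 36 h, 44 rows were lower and 5 higher, against 34% and 36%. Between adjacent time points, only 1 row (Prpf40b) was lower and none higher at 24 h than at 12 h, against 3.67% and 4.59% of all tested rows, with 5 and 0 rows at an unadjusted p below 0.05, against 12% and 12.8%. From 24 h to 36 h, 15 rows fell and none rose, against 9.64% and 10%, with 26 and 0 rows at an unadjusted p below 0.05, against 17.9% and 16.9%. This number that fell was 3 without 24 h replicate 3, 8 without 24 h replicate 2, 7 without 36 h replicate 1 and 6 without 36 h replicate 2. From 36 h to 48 h no splicing factor was called in either direction, against 0.0248% lower and 0% higher of all tested rows, with 2 lower and 3 higher at an unadjusted p below 0.05, against 6.99% and 6.4%. Comparisons with 0 h share the same 3 libraries and are not independent of each other.

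**Figure D2:**
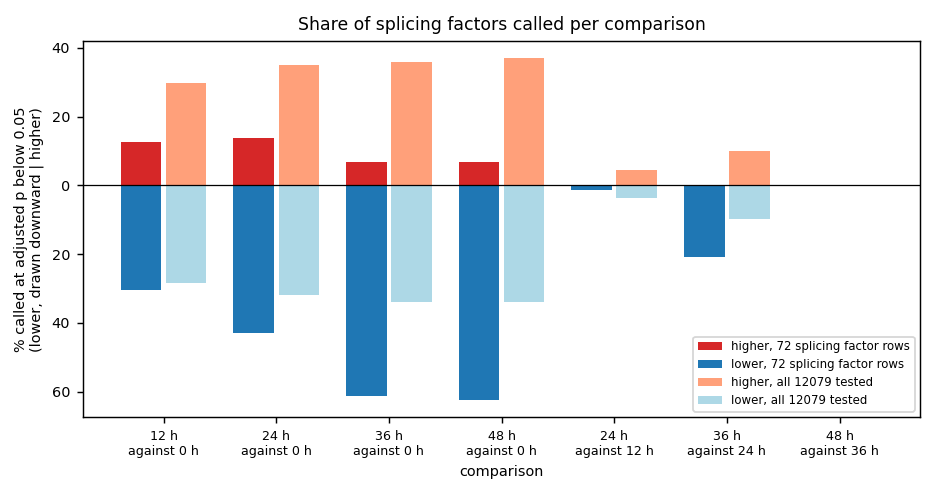
Share of rows called at an adjusted p below 0.05 (vertical axis, percent, higher upward and lower downward) in each of 7 comparisons, with dark bars for the 72 splicing factor rows and pale bars for all 12079 rows tested. The downward dark bars reach 62.5% at 48 h against 0 h and 61.1% at 36 h against 0 h, and the upward dark bars stay at or below 13.9%.

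The median of the 72 rows, taken in each library relative to the mean of the 0 h libraries, was −0.23 and −0.07 in the 12 h libraries and between −0.29 and −0.16 at 24 h. It was between −0.51 and −0.45 at 36 h and between −0.47 and −0.42 at 48 h. The 0 h libraries themselves spanned −0.10 to 0.08, and the tissue library stood at −0.09. The 12 h libraries overlapped those of 24 h, and the libraries of 36 and 48 h lay together below both. At 36 h, replicates 1 and 2 were closer to each other (median absolute difference 0.058) than any other pair of replicates (0.111 to 0.256). With these libraries averaged into 1, 7 rows rather than 15 fell from 24 h to 36 h.

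**Figure D3:**
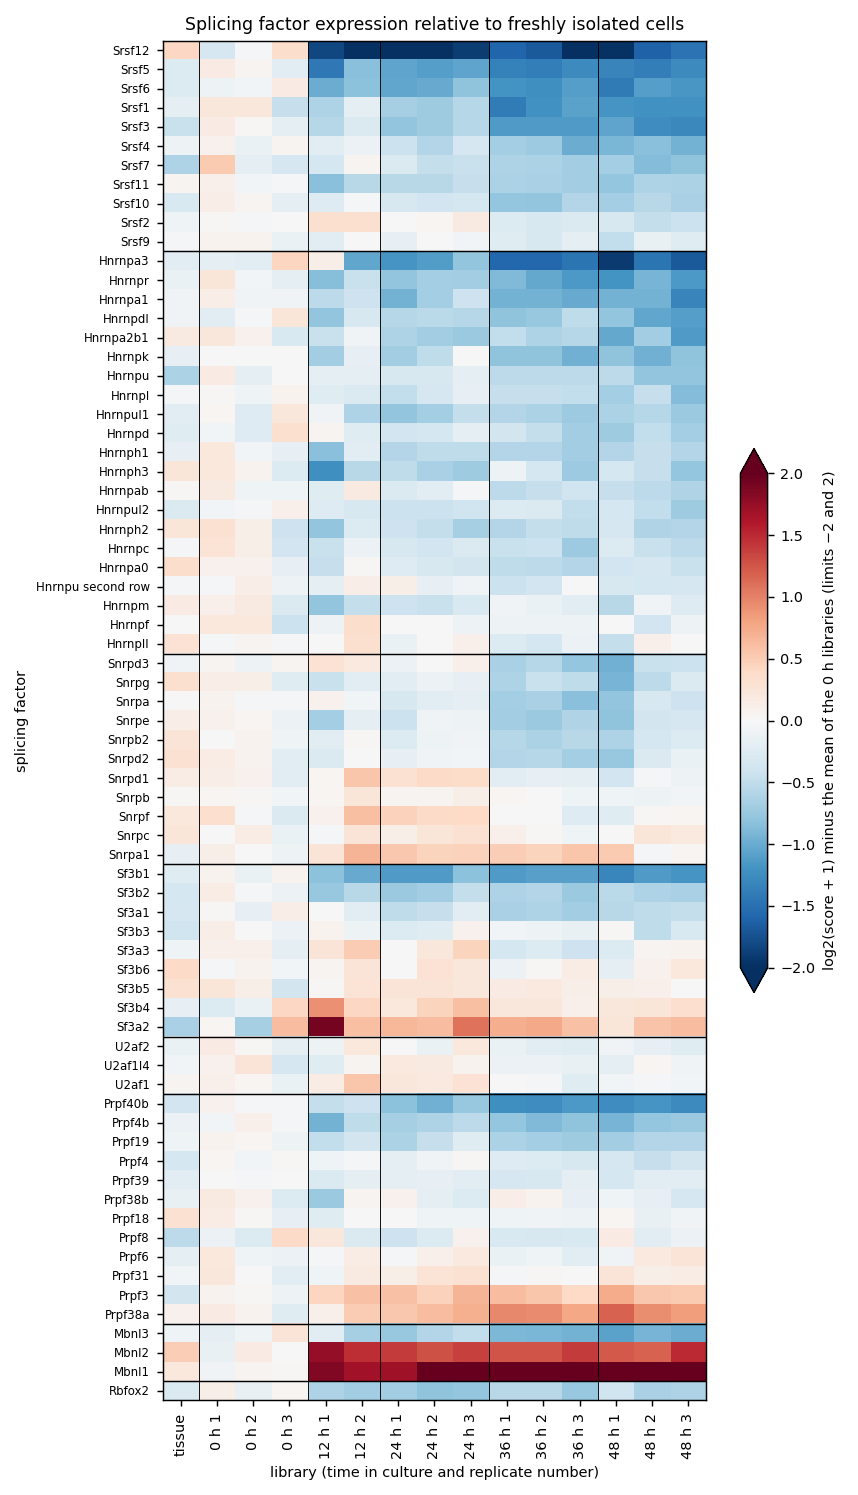
Heat map of log2(score + 1) minus the mean of the 3 libraries at 0 h for 71 of the 72 splicing factor rows (vertical axis, families separated by lines) in the tissue library and the 14 cell libraries (horizontal axis), with blue for lower and red for higher and the color scale ending at −2 and 2. The tissue and 0 h columns are pale, the Srsf and Hnrnp blocks turn blue with time, and the rows of Mbnl1 and Mbnl2 are red from 12 h onward.

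SR proteins bind exonic enhancers and recruit the spliceosome to nearby splice sites. Srsf5 (chromosome 12, 80945520 to 80950503, plus strand, 9 exons) scored 25128, 23306 and 19292 at 0 h. It scored 8337 and 12563 at 12 h, 10754, 10508 and 10754 at 24 h, 8782, 8581 and 9254 at 36 h, then 8992, 8581 and 9254 at 48 h. All 11 cultured libraries were below the lowest 0 h library, and the drop was present at the first time point. The log2 change was −1.13 at 12 h (limma adjusted p = 3.37e-05) and −1.33 at 48 h (SE 0.13, limma adjusted p = 1.51e-06), when Srsf5 was 2.51-fold lower.

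Srsf6 (chromosome 2, 162931528 to 162937121, plus strand, 6 exons), a close relative of Srsf5 by its domain structure, scored 10754, 11136 and 13025 at 0 h. The scores were 5804 and 6592 at 12 h, then 4366, 5399 and 5179 at 48 h. Cultured libraries did not overlap those at 0 h, and the change at 48 h was −1.23 (SE 0.11, limma adjusted p = 4.08e-07). Srsf12 (chromosome 4, 33208991 to 33233340, plus strand, 3 exons) scored 111, 138 and 180 at 0 h, 39 and 29 at 12 h, then 35, 45 and 50 at 48 h. It had the lowest scores in the family, all cultured libraries were below those at 0 h, and it was lower by 2.03 on the log2 scale at 12 h (limma adjusted p = 8.62e-05) and by 1.69 at 48 h (SE 0.27, limma adjusted p = 9.19e-05). In the tissue library Srsf12 scored 187, above every 0 h library.

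Srsf3, the smallest of the classical SR proteins, had the highest mean 0 h score of the family, in a row that listed a retained-intron transcript (chromosome 17, 29032649 to 29042243, plus strand, 4 exons). It scored 31878, 28872 and 25064 at 0 h, 19258 and 23242 at 12 h, 16538, 17398 and 19258 at 24 h, 12980 in each library at 36 h, then 13677, 12093 and 11650 at 48 h. The decline therefore continued after 12 h, with a further change of −0.45 from 24 h to 36 h (limma adjusted p = 0.0169). This call was not examined with single libraries left out. Over 48 h the change was −1.19 (SE 0.11, limma adjusted p = 8.31e-07).

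Srsf1, among the SR proteins described earliest, showed its clearest step late. It scored 23160, 23160 and 14325 at 0 h, 12923 and 17316 at 12 h, 12464, 12034 and 13266 at 24 h, 7491, 8488 and 9384 at 36 h, then 8707, 8488 and 8488 at 48 h. The 12 h libraries overlapped those at 0 h, and the 36 h libraries lay below all earlier ones. The step from 24 h to 36 h was −0.58 (limma adjusted p = 0.0320), and the limma adjusted p of this step was between 0.0548 and 0.122 when 24 h replicate 1, 2 or 3 or 36 h replicate 1 or 2 was left out. Srsf1 lies on chromosome 11, 88047373 to 88053755, plus strand, and its change over 48 h was −1.20 (SE 0.17, limma adjusted p = 3.29e-05).

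Srsf2 (SC35), an SR protein long used as a marker of nuclear speckles, went a different way at first. It scored 6695, 6490 and 6628 at 0 h, 8288 in both libraries at 12 h, 6565, 6803 and 7501 at 24 h, 5479, 5276 and 5383 at 36 h, then 5276, 4757 and 4927 at 48 h. Both 12 h libraries were above, and all libraries at 36 and 48 h below, those at 0 h. The change was 0.33 at 12 h (limma adjusted p = 0.00308) and −0.41 at 48 h (limma adjusted p = 1.80e-04), with −0.37 in the step from 24 h to 36 h (limma adjusted p = 0.00439). The other SR protein rows, for Srsf4, Srsf7, Srsf9, Srsf10 and Srsf11, fell by 0.29 to 0.90 on the log2 scale over 48 h. Srsf4 and Srsf10 were also lower at 36 h than at 24 h. The calls of Srsf2, Srsf4 and Srsf10 in this step were not examined with single libraries left out.

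**Figure D4:**
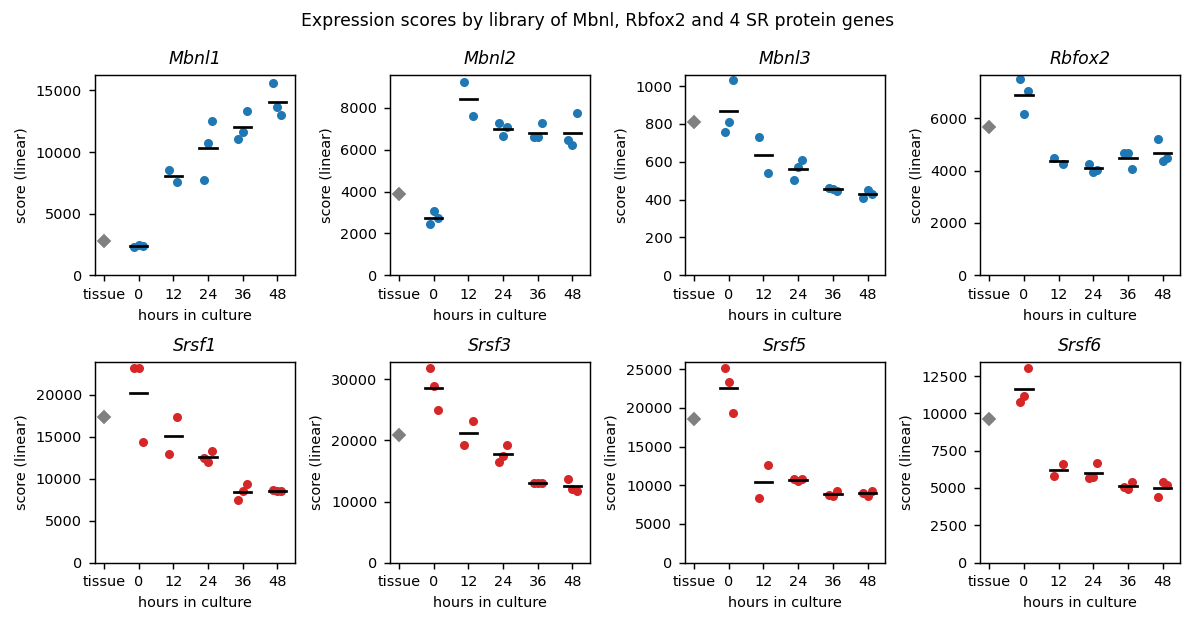
Linear expression scores (vertical axis, from 0) of Mbnl1, Mbnl2, Mbnl3, Rbfox2, Srsf1, Srsf3, Srsf5 and Srsf6 by hours in culture (horizontal axis), with a circle for each library, a black line for the mean of the 2 or 3 libraries of a time point and a grey diamond for the single tissue library. Mbnl1 climbs from about its tissue level of 2755 at 0 h to between 12983 and 15625 at 48 h, Mbnl2 is highest in a 12 h library at 9254, and the SR protein genes descend.

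The hnRNPs coat nascent transcripts and often oppose SR proteins. Hnrnpa3 (chromosome 2, 75659261 to 75665839, plus strand, 11 exons), of the A/B group, had the largest fall of the family. It scored 5988, 5841 and 9215 at 0 h, 7422 and 3323 at 12 h, 3013, 3157 and 3969 at 24 h, 2316, 2310 and 2481 at 36 h, then 1814, 2488 and 2135 at 48 h. The 12 h libraries were far apart, 1 within the 0 h range and 1 below it, and every library from 24 h onward was below 0 h. The change at 48 h was −1.69 (SE 0.25, limma adjusted p = 5.35e-05), or 3.22-fold lower, whereas at 12 h it was −0.47 and not called (limma adjusted p = 0.175).

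Hnrnpk, a poly(C)-binding protein, had the highest mean 0 h score of the family. It scored 40603 in all 3 libraries at 0 h, 24980 and 36335 at 12 h, 24980, 28694 and 40603 at 24 h, 23160, 23160 and 20818 at 36 h, then 23160, 20818 and 23160 at 48 h. The equal scores are those of shared ranks, and 1 of the 24 h libraries reached the 0 h level, whereas none at 36 or 48 h did. Hnrnpk (chromosome 13, 58391142 to 58403343, minus strand, 18 exons) changed by −0.86 over 48 h (SE 0.17, limma adjusted p = 5.58e-04).

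Of the other A/B members, Hnrnpa1 fell by 1.07 on the log2 scale, Hnrnpa2b1 by 0.95 and Hnrnpa0 by 0.39. Hnrnpr fell by 1.09 and Hnrnpdl by 0.98. Hnrnpl, which binds CA-rich RNA, fell by 0.67, and the rows of Hnrnpu by 0.70 and 0.34. Of the G-run binding proteins, Hnrnph1 fell by 0.55, Hnrnph2 by 0.51 and Hnrnph3 by 0.53, whereas Hnrnpf was not called (−0.16, limma adjusted p = 0.430). Hnrnpll and Hnrnpm were the other uncalled rows, at −0.12 and −0.30. All 21 estimates were negative at 48 h. In the step from 24 h to 36 h no Hnrnp row was called, with 4 lower and 0 higher at an unadjusted p below 0.05, against 17.9% and 16.9% of all tested rows.

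The Snrp genes encode the Sm proteins, which form the ring around the U1, U2, U4 and U5 RNAs, and proteins specific to U1 or U2. At 12 h against 0 h, 1 of the 11 rows was lower and 1 higher, against 28.3% and 29.9% of all tested rows. At 24 h none was lower and Snrpa1, Snrpd1 and Snrpf were higher, against 31.8% and 35%. At 36 h against 0 h, 6 rows were lower, Snrpa1 was higher and 4 were not called, against 34% lower and 36% higher of all tested rows. From 24 h to 36 h, 7 fell, against 9.64% of all tested rows, and the 36 h libraries lay entirely below the 24 h libraries for 10, against 25.1% of all tested rows. No Snrp row lay entirely above, against 22.2%. Among the 7 were the Sm proteins Snrpd1, Snrpd2, Snrpd3, Snrpe and Snrpf, together with Snrpa of U1 and Snrpb2 of U2. As given above, the number called in this step over all splicing factors depended on single libraries.

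Snrpd3 (chromosome 10, 75517551 to 75537381, plus strand, 4 exons) showed the largest step. It scored 1195, 1079 and 1198 at 0 h, 1418 and 1320 at 12 h, 1068, 1145 and 1247 at 24 h, 741, 776 and 673 at 36 h, then 596, 849 and 860 at 48 h. The 24 h libraries spanned the 0 h range, and all libraries at 36 and 48 h were below it. The step from 24 h to 36 h was −0.66 (SE 0.13, limma adjusted p = 0.00498), and this call was kept without any single library. Snrpb, the Sm protein with the highest mean 0 h score, differed from it. Its row, which listed a retained-intron transcript, scored 5019, 4948 and 4680 at 0 h and 4600, 4560 and 4680 at 48 h, and its change of −0.08 (95% confidence interval −0.23 to 0.07) was not called. Snrpa1 of U2 was higher at 12 h (0.47, limma adjusted p = 0.0179), at 24 h (0.48, limma adjusted p = 0.00732) and at 36 h (0.50, limma adjusted p = 0.00550), and it was not called at 48 h (0.18).

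SF3a and SF3b are the U2 snRNP subcomplexes that hold the branch site. Sf3b1, the large subunit that contacts the branch helix, scored 28882, 25068 and 28882 at 0 h, 15625 and 13679 at 12 h, 12523, 12523 and 15625 at 24 h, 12523, 12983 and 12983 at 36 h, then 11095, 12523 and 12096 at 48 h. No cultured library reached the 0 h range, and no later step between adjacent time points was called. Sf3b1 (chromosome 1, 54985169 to 55027481, minus strand, 25 exons) changed by −1.21 over 48 h (SE 0.11, limma adjusted p = 4.39e-07). Its partners Sf3b2 and Sf3a1 fell by 0.60 and 0.52 on the log2 scale.

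The other 6 subunits were not called at 48 h. Sf3b6, the small protein next to the branch adenosine, scored 997, 1060 and 971 at 0 h and 893, 1071 and 1170 at 48 h. At every time point its libraries overlapped those at 0 h, and its change over 48 h was 0.04 (95% confidence interval −0.21 to 0.29). Sf3a3 scored 3043, 3029 and 2463 at 0 h, 3391 and 4048 at 12 h, 2224, 2345 and 2116 at 36 h, then 2338, 2944 and 2961 at 48 h. It was higher at 12 h (0.39, limma adjusted p = 0.0398), lower at 36 h than at 0 h (−0.35, limma adjusted p = 0.0334), and back within the 0 h range in 2 of 3 libraries at 48 h (−0.05). Sf3a2 scored 184, 113 and 277 at 0 h, 677 and 273 at 12 h, then 213, 268 and 275 at 48 h. It varied more between replicates than its partners, and although it was called higher at 12 h (1.26, SE 0.37, limma adjusted p = 0.0104), 1 of the 12 h libraries lay within the 0 h range. At 48 h it was not called (0.48), and the change was 0.15 without 0 h replicate 2 (limma adjusted p = 0.692) and 0.79 without 0 h replicate 3 (limma adjusted p = 0.0453).

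The U2AF heterodimer marks the 3′ splice site, with U2af2 on the polypyrimidine tract and U2af1 on the AG. U2af1 scored 2397, 2297 and 2058 at 0 h, 2485 and 3299 at 12 h, 2615, 2583 and 2750 at 24 h, 2235, 2215 and 1902 at 36 h, then 2168, 2206 and 2161 at 48 h. It was above 0 h in both libraries at 12 h (0.35, limma adjusted p = 0.0196) and within the 0 h range at 48 h (−0.04, 95% confidence interval −0.27 to 0.18). U2af2 scored 8945, 8093 and 6934 at 0 h and 7590, 7058 and 6695 at 48 h, and the groups overlapped (−0.16, 95% confidence interval −0.42 to 0.09). U2af1l4, a U2af1-like protein, scored 598, 674 and 448 at 0 h and 500, 578 and 541 at 48 h (−0.07, 95% confidence interval −0.36 to 0.22).

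The Prpf proteins work in the U4/U6.U5 tri-snRNP, the activation of the spliceosome and the U1 snRNP. Prpf8, the protein at the catalytic center, scored 7406, 6628 and 10443 at 0 h and 8945, 6934 and 7406 at 48 h. The groups overlapped, and the change was −0.05 (95% confidence interval −0.45 to 0.35). Prpf38a, a factor of spliceosome activation, scored 1227, 1142 and 926 at 0 h, 1166 and 1553 at 12 h, 1580, 1667 and 1781 at 24 h, 2135, 2108 and 1858 at 36 h, then 2467, 2088 and 1957 at 48 h. It was above 0 h in every library from 24 h onward and rose by 0.99 over 48 h (SE 0.13, limma adjusted p = 2.05e-05), in a row that listed a processed transcript (chromosome 4, 108563172 to 108567027, minus strand, 2 exons).

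Prpf3, a U4/U6 protein, scored 528, 512 and 469 at 0 h, 678 and 755 at 12 h, then 840, 728 and 725 at 48 h. All 11 cultured libraries were above those at 0 h, and the change at 48 h was 0.60 (SE 0.10, limma adjusted p = 1.23e-04). Prpf3 lies on chromosome 3, 95830124 to 95855885, minus strand, with 16 exons. Of its neighbors in the tri-snRNP, Prpf4 fell by 0.39 on the log2 scale, and Prpf31 and Prpf6 were not called (0.18 and 0.13).

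The U1-associated protein Prpf40b moved downward in steps. Prpf40b (chromosome 15, 99295087 to 99305965, plus strand, 8 exons) scored 1268, 1164 and 1161 at 0 h, 860 and 902 at 12 h, 674, 617 and 707 at 24 h, 513, 503 and 541 at 36 h, then 504, 526 and 497 at 48 h. The libraries of each time point up to 36 h lay below those of the preceding time point. Prpf40b was the only splicing factor called between 12 h and 24 h (−0.40, SE 0.09, limma adjusted p = 0.0152), and this call was lost without 12 h replicate 1 (0.0846), 12 h replicate 2 (0.0573) or 24 h replicate 2 (0.0725, all limma adjusted p). It changed by −1.23 over 48 h (SE 0.08, limma adjusted p = 2.51e-08). Prpf4b, a kinase, fell by 0.81 on the log2 scale over 48 h, Prpf19, the ubiquitin ligase of the Prp19 complex, by 0.62, and Prpf39 by 0.26.

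The muscleblind proteins set splicing choices of differentiating tissues and are known from myotonic dystrophy, in which they are sequestered by repeat RNA. Mbnl1 (chromosome 3, 60501179 to 60629750, plus strand, 10 exons) had the largest change of all 72 rows. It scored 2258, 2468 and 2405 at 0 h, 8543 and 7604 at 12 h, 7732, 10727 and 12523 at 24 h, 11095, 11655 and 13304 at 36 h, then 15625, 13679 and 12983 at 48 h. The lowest cultured library (7604) was far above the highest at 0 h (2468), and the mean was higher at each later time point. The change was 1.76 at 12 h (limma adjusted p = 1.88e-06) and 2.56 at 48 h (SE 0.15, limma adjusted p = 1.02e-08), which is 5.91-fold. No step between adjacent time points after 12 h was called for Mbnl1 (limma adjusted p = 0.240, 0.267 and 0.537).

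Mbnl2 (chromosome 14, 120275669 to 120431697, plus strand, 9 exons) scored 2466, 3079 and 2731 at 0 h, 9254 and 7631 at 12 h, 7277, 6646 and 7095 at 24 h, 6592, 6592 and 7277 at 36 h, then 6445, 6236 and 7759 at 48 h. It rose within 12 h and stayed above 0 h in all cultured libraries. The change was 1.61 at 12 h (limma adjusted p = 3.07e-07) and 1.30 at 48 h (SE 0.11, limma adjusted p = 3.07e-07). Mbnl3 (chromosome X, 51117269 to 51205832, minus strand, 7 exons) went down instead, with 758, 810 and 1030 at 0 h, 730 and 539 at 12 h, 505, 573 and 610 at 24 h, 460, 457 and 446 at 36 h, then 410, 451 and 430 at 48 h. Its change at 48 h was −0.996 (SE 0.13, limma adjusted p = 2.06e-05).

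Rbfox2, the Rbfox protein found in many tissues outside nerve and muscle, scored 7491, 6173 and 7036 at 0 h, 4498 and 4264 at 12 h, 4264, 3947 and 4034 at 24 h, 4683, 4683 and 4049 at 36 h, then 5194, 4366 and 4498 at 48 h. All cultured libraries were below 0 h, with the lowest mean at 24 h. Rbfox2 (chromosome 15, 77083802 to 77306605, minus strand, 13 exons) changed by −0.65 at 12 h (limma adjusted p = 1.93e-04), by −0.75 at 24 h (limma adjusted p = 1.46e-05) and by −0.56 at 48 h (SE 0.10, limma adjusted p = 1.66e-04). Mbnl1, Mbnl2, Mbnl3 and Rbfox2 kept their calls at 48 h when any single library of 0 h or 48 h was left out, the 0 h library with the epithelial markers included.

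Across all cultured time points together, 19 of the 72 splicing factor rows were below every 0 h library in all 11 cultured libraries. Only 3 were above, namely Mbnl1, Mbnl2 and Prpf3. Over all rows of the data, 22.6% were below and 24.6% above in this way, so that the share below was near that of the table. The 19 rows comprised 6 of the Hnrnp, 5 of the Srsf, 4 of the Prpf and 2 of the Sf3a and Sf3b family, together with Mbnl3 and Rbfox2. No Snrp and no U2af row was among them.

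The 0 h cells were compared with dental mesenchymal tissue, which had a single library, without a test. Of the 72 rows, the tissue score was above all 3 libraries at 0 h for 15, below all for 23 and between them for 34, where 29.7% of all rows were above and 32% below. No splicing factor differed by more than 2-fold from the mean at 0 h. Differences of that size were rare in the whole table as well (459 of 12089 rows). The largest differences were −0.65 for Sf3a2, which scored 114 in tissue, within the 0 h range, and 0.50 for Mbnl2, which scored 3881. Mbnl1 scored 2755 in tissue, far below the cultured libraries.

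Splicing genes outside these families moved in both directions. Of 147 rows in 9 lists of splicing proteins with other symbols, 63 fell (42.9%) and 36 rose (24.5%) over 48 h, against 34% and 37.1% of all tested rows, with a median change of −0.12 against 0.03. Among 31 other regulators of alternative splicing, 20 fell and 6 rose, and among 16 kinases, phosphatases and SR-related proteins, 11 fell and 1 rose. Clk1, a kinase that phosphorylates SR proteins, scored 4930, 6940 and 5717 at 0 h, 1490 and 2162 at 12 h, then 2069, 1761 and 1699 at 48 h. Its scores dropped within 12 h and the groups did not overlap, with a change of −1.66 at 48 h (SE 0.15, limma adjusted p = 4.74e-07). Srrm1, an SR-related coactivator, fell by 1.31 on the log2 scale.

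Tia1, which recruits U1 to weak 5′ splice sites from U-rich RNA, scored 4228, 4115 and 3459 at 0 h, 1091 and 1346 at 12 h, then 1038, 1145 and 1041 at 48 h. It fell by 1.87 on the log2 scale (SE 0.11, limma adjusted p = 1.04e-08), with no overlap. Rbm38, an RNA-binding protein of p53-dependent and erythroid programs, went the opposite way. It scored 31, 56 and 76 at 0 h, 68 and 52 at 12 h, 169, 161 and 130 at 24 h, 317, 311 and 203 at 36 h, then 269, 225 and 232 at 48 h. Rbm38 was within the 0 h range at 12 h and above it from 24 h onward, and it rose by 2.22 over 48 h (SE 0.28, limma adjusted p = 1.28e-05).

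The 14 genes of Sm core assembly, which load Sm proteins onto snRNAs, had 9 that rose (64.3%) and 2 that fell (14.3%), against 37.1% and 34% of all tested rows, with a median change of 0.43. Gemin7, of the SMN complex, scored 365, 452 and 337 at 0 h, 701 and 751 at 12 h, then 749, 1079 and 1015 at 48 h, and rose by 1.29 (SE 0.15, limma adjusted p = 4.44e-06). Its partner Gemin6 scored 158, 77 and 69 at 0 h and 401, 281 and 258 at 48 h, a rise of 1.69 (SE 0.26, limma adjusted p = 7.53e-05). For both genes all cultured libraries were above those at 0 h. None of the 7 Sm protein rows was called higher at 48 h.

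The counts of the LSm list were near those of the table, as 5 of 13 rose (38.5%) and 4 fell (30.8%), against 37.1% and 34% of all tested rows, and the other lists named here are small and stand against the same shares. Its largest changes were in members that do not serve the splicing snRNPs, Lsm10 of the U7 snRNP for histone mRNA processing (2.17, limma adjusted p = 4.35e-08) and Lsm14b, an mRNP protein (−0.99, limma adjusted p = 2.33e-06). Of 19 U1, U4, U5, U6 and tri-snRNP proteins, 10 fell and 5 rose, with Luc7l2 of U1 at −0.93 and Usp39 of the tri-snRNP at 0.76. Of 15 branch site and U2-associated proteins 4 fell and 2 rose, and Htatsf1 and the branch point binding protein Sf1 fell by 0.92 and 0.65. Of 21 Prp19 complex and step factors 6 fell and 3 rose, with the cyclophilins Cwc27 at 0.998 and Ppil1 at −0.48. Of 10 exon junction complex proteins 5 fell and 2 rose, with Magohb, which has the near-identical relative Magoh, at 0.90 and Pnn at −0.69. The 8 minor spliceosome proteins had 3 that rose and 1 that fell, with Zmat5 at 0.62, whose groups met at a score of 106, and Pdcd7 at −0.64.

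**Figure D5:**
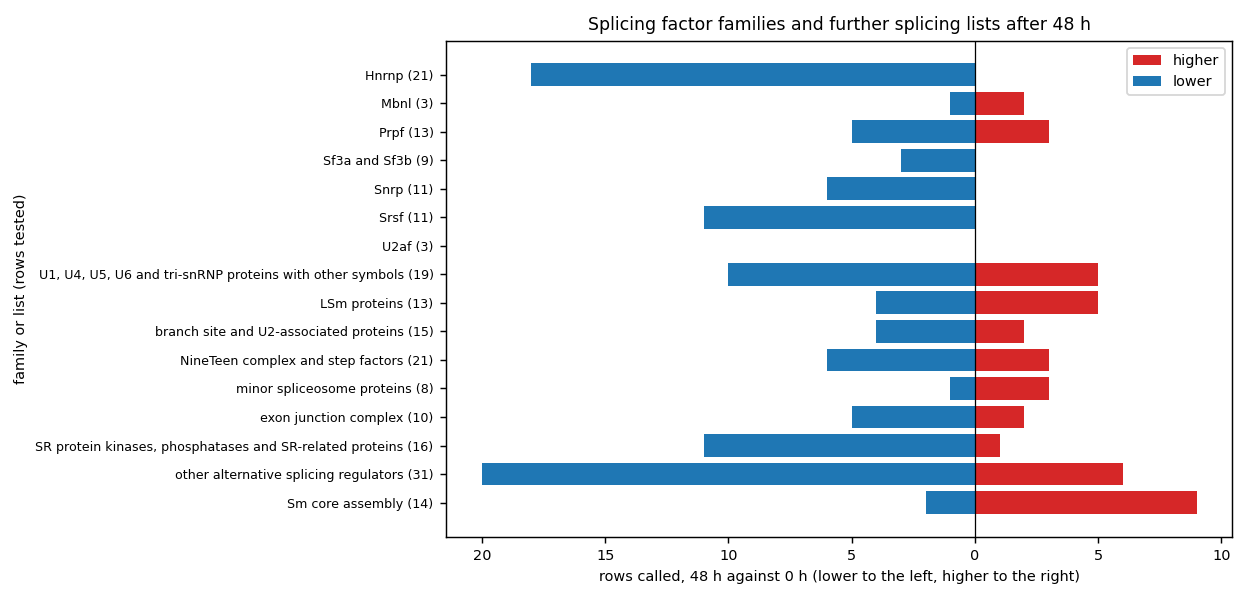
Number of rows called at an adjusted p below 0.05 at 48 h against 0 h (horizontal axis, lower to the left and higher to the right) in 7 splicing factor families and 9 further splicing lists (vertical axis, rows tested in parentheses). The Srsf and Hnrnp bars extend only to the left, at 11 and 18 rows, and the Sm core assembly bar extends mostly to the right, at 9 rows.

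The members differed from the table in base composition. The transcripts of the 72 rows had a median GC content of 45.7%, against 50.1% over the tested rows with a sequence. Among the 50 members below that median, 33 fell over 48 h (66%), and among the 22 at or above it 12 fell (54.5%). The shares among all tested rows with a sequence were 32.2% and 35.8%, respectively. The differences between these shares were not tested.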

How the data were processed

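Total RNA of 14 mDMC libraries and 1 tissue library had been sequenced after TruSeq preparation. The authors trimmed the reads, mapped them to Ensembl transcripts of mm10 with bowtie and RSEM (version 1.1.21 in the submitters' processing notes) and tested genes with DESeq2. The authors deposited 1 table of whole-number expression scores, labelled as cpm but with totals and ranks that show a further step of normalization, which is not given in the sources used here. Library depth is therefore unknown and no counting error can be given, and values largely fixed by rank can misstate the spread between replicates.

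Transcript identifiers were matched to GENCODE genes on GRCm38. Scores were analyzed as log2(score + 1) in R 4.3.3 by limma 3.58.1. The model gave each time point a mean over 14 libraries and used eBayes with an intensity trend. Rows that reached 1 ppm of a library's total in 2 or more libraries were tested. The design foresaw a count model only for raw counts, which these are not. The tissue library was left out of the fit. The procedure was tested on simulated data.

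Values by library were given for the 5 largest rises and falls over 48 h, up to 2 in each direction from 0 h to 12 h and in each later step (called and not overlapping), all U2af, Mbnl and Rbfox rows, the highest mean 0 h score of each larger family, the 3 smallest changes, the 2 largest differences from tissue, and up to 2 called genes of each further list. The values of 1 member are not reported here, although it is in the counts. Srsf2 and other members were added after their values were seen. Members and lists were chosen with earlier results of these data known, and counts over them are descriptions. The alternatives were another pseudocount, other filters, trimmed-mean scaling, only the compared time points, no trend, a replicate block, and each replicate left out in turn. Replicate numbers were shared between time points. In the comparison of 36 h with 24 h the 3 same-numbered pairs of libraries deviated together (correlations 0.127, 0.142 and 0.165), which is a pairing seen in the data and not stated in the labels. In the other comparisons made, not every same-numbered pair had a correlation over 0.1. Between 24 h and 48 h, which were not compared, the 3 same-numbered pairs had larger correlations of 0.304, 0.201 and 0.318.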

Additional observations from a re-analysis of the deposited data

How the results depend on the processing

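Another pseudocount, other filters, trimmed-mean scaling, a fit without trend and the replicate block kept every count of called splicing factors within 1.5 times its value. They changed no direction or call of the splicing factors chosen by the rule above, each in the comparison checked for it. Members added later and genes of the further lists were not checked in this way. With the replicate block, 45 rows were lower and 5 higher at 48 h than at 0 h, and 14 were lower at 36 h than at 24 h. The block changed no call among the splicing factors that were checked. Same-numbered libraries had correlations of −0.25 to 0.32 (median 0.067, over 0.1 in 11 of 26 pairs), and other pairs a median of −0.038 (over 0.1 in 6 of 52). Deviations were taken from the mean of each time point and sum to 0 within it. Positive values in some pairs therefore go with negative values in others, and the pairs are not independent. Fitting only the compared time points gave 5 rows higher at 12 h than at 0 h, 0 lower at 24 h than at 12 h, and 2 higher and 27 lower at 36 h than at 24 h, since each such fit has its own estimate of the spread, and it moved Prpf40b between 12 h and 24 h past the threshold (limma adjusted p = 0.126). Averaging the first and second 36 h libraries, an alternative chosen after seeing the data, left 7 rows lower at 36 h than at 24 h and Srsf1 uncalled in that step (limma adjusted p = 0.101).

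With each replicate left out in turn, the number lower was 14 to 24 at 12 h, 25 to 31 at 24 h, 41 to 47 at 36 h and 39 to 47 at 48 h, each against 0 h, and the number higher was 6 to 11, 5 to 11, 5 to 7 and 5 to 7. From 12 h to 24 h, 0 to 1 were higher and 0 to 2 lower, and from 24 h to 36 h, 0 were higher and 3 to 15 lower. From 36 h to 48 h none was called in any of these fits. Of the splicing factors chosen by the rule above, 8 were uncalled at 48 h, and the changes of 5 of these crossed 0. The ranges were −0.11 to 0.0027 for U2af1, −0.24 to 0.058 for U2af1l4, −0.19 to 0.14 for Prpf8, −0.045 to 0.15 for Sf3b6 and −0.15 to 0.060 for Sf3a3. The changes of U2af2, Snrpb and Sf3a2 kept their sign, with Sf3a2 between 0.15 and 0.79. Other uncalled members named above were not checked in this way. The cause was not tested. Ranks in place of depth limit the comparison of scores that lie close together, and changes in the total amount of splicing factor RNA per cell cannot be seen.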
